A study of Mus musculus with 5 samples.

Results

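Chemokines are small secreted proteins that attract leukocytes, and the chemokine receptors through which they act sit on the cell surface. All protein coding genes of the deposited count table with a symbol of the Ccl, Cxcl, Ccr or Cxcr series, together with *Cx3cl1*, *Cx3cr1*, *Xcl1* and *Xcr1*, were taken as members. The rule found 63 genes among the 55487 genes of the table, of which 21936 are protein coding. These 63 genes carry 57 distinct symbols, since some *Ccl19*, *Ccl21* and *Ccl27* genes are listed in several copies. They comprise 45 ligand genes and 18 receptor genes. The libraries were made from macrophages sorted from whole aortas as viable CD45+ F4/80+ cells, and the study's methods add CD11b, a myeloid surface marker, to this gate. The labels and the isolation protocol name the whole aorta, while other passages of the study place these macrophages in the aortic sinus. 2 libraries were labelled WT (Zeb1WT/ApoeKO: both *Zeb1* alleles floxed, *Apoe* deleted) and 3 were labelled KO (Zeb1∆M/ApoeKO: the same alleles plus LysM-Cre, which is driven by the *Lyz2* promoter and deletes *Zeb1* in myeloid cells). Both genotypes therefore lack *Apoe*, a deletion that raises blood cholesterol and makes mice prone to atherosclerosis, and all mice were male, were kept on chow up to 8 weeks of age and were then fed a high-fat Western diet during 10 weeks. The comparison asks which transcripts of aortic macrophages differ when these cells lack ZEB1, a transcription factor that binds E-box motifs.

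In chemotaxis, a ligand binds a receptor coupled to inhibitory G proteins, and the βγ subunits released inside the cell activate phosphoinositide 3-kinase γ, phospholipase C β and the Rac regulators that turn the cytoskeleton. Inflammatory ligands such as *Ccl2*, *Ccl3* and *Cxcl2* are made by macrophages themselves and by vessel wall cells, whereas homeostatic ligands such as *Ccl19*, *Ccl21* and *Cxcl13* are made by stromal cells of lymphoid tissue. In atherosclerotic arteries, *Ccr2* and *Cx3cr1* are known for bringing monocytes into the plaque, and the *Ccl2* and *Ccr2* pair is the best known ligand and receptor pair there.

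The libraries were prepared with a kit that amplifies cDNA from few sorted cells. Macrophages of 3 mice were mixed for a genotype before library preparation. The study calls its replicates biologically independent, but how the mixing relates to the replicate libraries is not stated in the sources used here. P-values measure the spread between these libraries, part of which may be technical. Total counts lay between 20118545 and 50649912 per library. A floor of 3 counts was used for detection, which was 0.0597 to 0.248 CPM (counts per library size, adjusted by TMM normalization). Such floors cover counting error only, since amplified reads are not independent molecules. *Zeb1* was read only in Zeb1∆M/ApoeKO replicate 1, with 22 counts, and so it did not check the labels. *Lyz2*, a myeloid gene whose promoter also drives the Cre, had between 161607 and 869804 counts in all 5 libraries. By contrast, *Cd68* had 0 counts in Zeb1WT/ApoeKO replicate 1 and 10 in Zeb1∆M/ApoeKO replicate 1. All 8 macrophage markers exceeded 3 counts in some library, with summed levels of 22441 and 25041 CPM in the Zeb1WT/ApoeKO libraries and 13468, 22655 and 20586 CPM in the Zeb1∆M/ApoeKO libraries. *Lyz2* alone made up 21582 and 22555 CPM of these sums in the Zeb1WT/ApoeKO libraries and 13335, 20036.5 and 17312 CPM in the Zeb1∆M/ApoeKO libraries. It was lower in every Zeb1∆M/ApoeKO library, as were 4.54% of the genes tested, with a log2 fold change of −0.39 (standard error 1.32). *Itgam*, which encodes CD11b, had 441 and 3074 counts against 0, 33 and 1988, *Csf1r* had 25 counts in Zeb1∆M/ApoeKO replicate 1 and 502 to 47592 in the others, and *Fcgr1* was at 0 in Zeb1WT/ApoeKO replicate 1 and Zeb1∆M/ApoeKO replicate 3. *Mertk* had 22 counts in Zeb1∆M/ApoeKO replicate 1 and 0 in the other libraries. The other genes of the sort gate, *Adgre1* and *Ptprc*, were read in all 5 libraries. *Adgre1* had 9368 and 11689 counts in the Zeb1WT/ApoeKO libraries and 1068, 4404 and 38190 in the Zeb1∆M/ApoeKO libraries. *Ptprc* had 13409 and 13949 counts against 475, 44796 and 29947. Zeb1∆M/ApoeKO replicate 1 stood apart. It had counts for 20919 genes, against 7395 to 10689 in the other libraries, but for only 864 genes over 100 counts, against 1713 to 4419. The comparisons were also run without it.

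Of the 63 members, 22 had 0 counts in every library and 4 had at most 3 counts. The remaining 37 exceeded 3 counts in at least 1 library, 24 of them ligands and 13 receptors. Without Zeb1∆M/ApoeKO replicate 1 this number was 29. The ligands not detectable at this depth were *Ccl1*, *Ccl11*, *Ccl17*, *Ccl20*, *Ccl26*, *Ccl28*, *Cx3cl1*, *Cxcl13*, *Cxcl15*, *Cxcl17*, *Ccl27b*, every *Ccl21* copy, and copies of *Ccl19* and *Ccl27a* on unplaced scaffolds. The receptors were *Ccr6*, *Ccr8*, *Ccr10*, *Cxcr1* and *Cxcr3*. Copies of the *Ccl21* family share between 61.3% and 100% of their 75-base stretches with other genes, so reads from them could be split between copies.

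**Figure D1:**
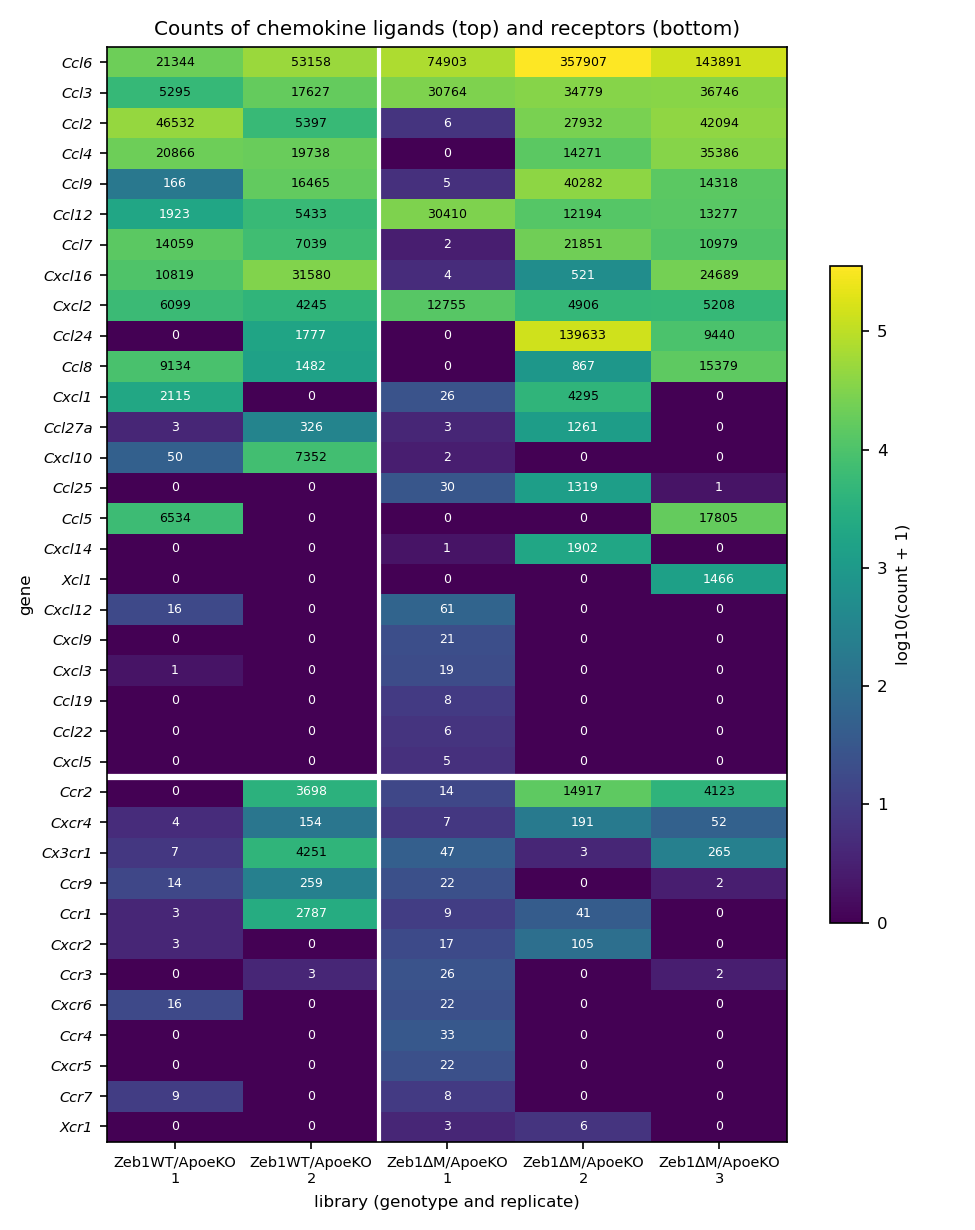
Counts of members above 3 counts in at least 1 library, with ligands above the white line and receptors below it, and 1 column per library. Numbers are deposited expected counts and colour is log10(count + 1). *Ccl6*, *Ccl3*, *Ccl12* and *Cxcl2* have over 1000 counts in every column, while most receptors are at or near 0 in most columns.

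Detection differed from library to library. 8 members (21.6% of the 37) exceeded 3 counts in all 5 libraries, namely *Ccl2*, *Ccl3*, *Ccl6*, *Ccl9*, *Ccl12*, *Cxcl2*, *Cxcl16* and *Cxcr4*. Over the 14743 protein coding genes above 3 counts in any library, that share was 6.46%. 11 members (29.7%) exceeded 3 counts in a single library, against 42.4% of protein coding genes. 25 members had over 100 counts in some library, and 15 of these, 10 ligands and 5 receptors, were at or under 3 counts in a second library of their own genotype. These 15 members thus went from many reads to almost none within 1 genotype. The same share was not counted over all genes, so it is not shown to be particular to the members. In bulk libraries, fewer cells of a type and less RNA per cell cannot be told apart.

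**Figure D2:**
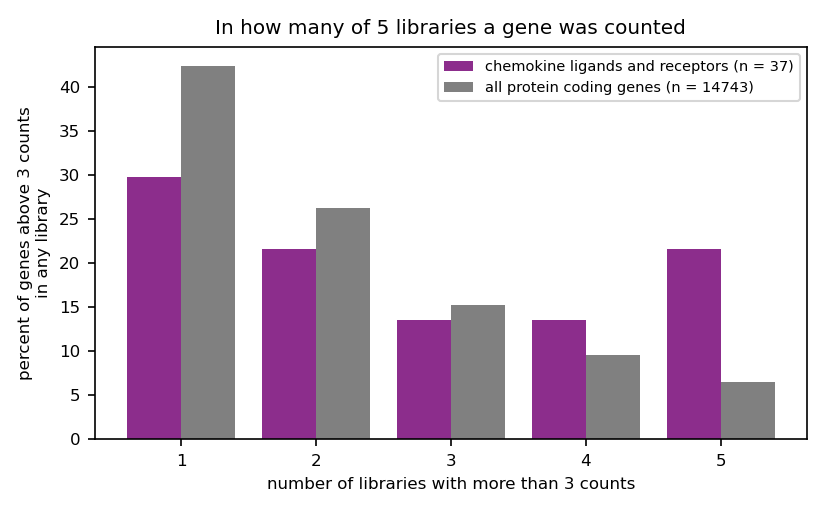
Share of genes (y axis, percent of those above 3 counts in any library) against the number of libraries in which they exceeded 3 counts (x axis), for 37 chemokine members and 14743 protein coding genes. The members reach 21.6% at 5 libraries, where protein coding genes reach 6.46%.

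4 members had over 1000 counts in every library, all of them ligands, as had 195 genes of the whole table. They were *Ccl3* (macrophage inflammatory protein 1α) and *Ccl6*, which act on *Ccr1*, *Ccl12*, a ligand of *Ccr2*, and *Cxcl2*, which attracts neutrophils through *Cxcr2*. *Ccl6*, *Ccl3* and *Ccl12* lie in clusters of Ccl genes on chromosome 11 of GRCm38, at chr11:83587882-83593087, chr11:83647844-83649355 and chr11:82101845-82103400. *Cxcl2* lies in the Cxcl cluster of chromosome 5, at chr5:90903871-90905938. Their promoters are shown beside those of *Cxcl1*, the neighbour of *Cxcl2*, and of *Cxcl10*, because these 6 ligands span the range from reads in every library to reads in few. Each sequence is the 250 bases before the RefSeq start of the gene (GRCm38.p6), on the strand of the gene, and capitals mark matches to an NF-κB-like motif, that is GGG, 3 bases of any kind and TTCC, searched on both strands.
Ccl3, chr11:83649379-83649628, minus strand: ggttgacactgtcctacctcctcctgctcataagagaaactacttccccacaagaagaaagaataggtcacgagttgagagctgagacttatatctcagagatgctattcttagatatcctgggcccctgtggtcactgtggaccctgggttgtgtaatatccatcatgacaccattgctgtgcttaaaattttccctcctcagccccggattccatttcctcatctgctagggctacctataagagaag
Ccl6, chr11:83593088-83593337, minus strand: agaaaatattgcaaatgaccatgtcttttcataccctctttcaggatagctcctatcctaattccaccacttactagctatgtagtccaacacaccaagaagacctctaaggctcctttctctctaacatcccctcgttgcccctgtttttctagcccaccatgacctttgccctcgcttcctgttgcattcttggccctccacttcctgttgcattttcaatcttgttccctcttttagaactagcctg
Ccl12, chr11:82101595-82101844, plus strand: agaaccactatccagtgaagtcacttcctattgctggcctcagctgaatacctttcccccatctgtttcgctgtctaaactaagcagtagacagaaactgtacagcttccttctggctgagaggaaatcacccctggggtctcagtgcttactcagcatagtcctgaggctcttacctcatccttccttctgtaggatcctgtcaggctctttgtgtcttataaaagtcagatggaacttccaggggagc
Cxcl2, chr5:90903649-90903898, plus strand: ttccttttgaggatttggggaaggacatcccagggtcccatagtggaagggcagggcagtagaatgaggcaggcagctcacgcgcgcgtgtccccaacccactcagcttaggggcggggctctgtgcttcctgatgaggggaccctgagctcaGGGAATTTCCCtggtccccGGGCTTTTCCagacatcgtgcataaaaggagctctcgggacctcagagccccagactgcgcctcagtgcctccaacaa
Cxcl1, chr5:90890995-90891244, plus strand: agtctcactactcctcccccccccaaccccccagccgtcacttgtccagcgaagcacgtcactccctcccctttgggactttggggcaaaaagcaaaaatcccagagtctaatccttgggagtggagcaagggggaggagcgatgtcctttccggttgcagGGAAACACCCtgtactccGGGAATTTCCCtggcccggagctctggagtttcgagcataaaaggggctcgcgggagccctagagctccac
Cxcl10, chr5:92348890-92349139, minus strand: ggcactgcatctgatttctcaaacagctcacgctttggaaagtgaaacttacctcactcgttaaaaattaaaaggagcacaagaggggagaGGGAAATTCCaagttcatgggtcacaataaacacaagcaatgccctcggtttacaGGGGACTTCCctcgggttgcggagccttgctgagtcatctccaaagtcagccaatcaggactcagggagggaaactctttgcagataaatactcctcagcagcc

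NF-κB is the main transcription factor of inflammatory gene induction. The capitals fall in the 3 Cxcl promoters, with 2 stretches in each, and none of the 3 Ccl promoters holds these letters within 250 bases. RefSeq promoters were matched by symbol for 42 members, and *Ccl2*, *Ccl4*, *Ccl5*, *Ccl7*, *Ccl24*, *Cxcl16* and *Ccr7* had none to match. Of the 42, 9 held the motif in at least 1 promoter. Among 32817 single promoters of the same length, 4.65% held it, so the units differ where a symbol has several. The members with it were *Ccl1*, *Ccl9*, *Ccl20*, *Ccr3*, *Ccr6*, *Cxcl1*, *Cxcl2*, *Cxcl3* and *Cxcl10*. Their counts differed widely, since *Cxcl2* was above 1000 counts in every library, *Cxcl1* was at 0 in some and *Ccl20* was at 0 in all. The E-boxes bound by ZEB1, CAGGTG and CAGGTA, were found for 10 of the 42 members, against 25.4% of all single promoters. Among the 18 tested members with a promoter, 4 held an E-box, namely *Ccl25*, *Ccl27a*, *Ccr9* and *Cxcr2*. A match is a description of letters and not a binding site.

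Between the genotypes, no chemokine or receptor gene passed the test. edgeR's quasi-likelihood test was run on the 7905 genes left by a filter on low counts, 26 of them members (17 ligands and 9 receptors). With Benjamini-Hochberg adjustment, 0 members had an adjusted p under 0.05, as had 0 of the 7905 genes (0%). At an unadjusted p under 0.05 there were also 0 members, beside 1.09% of the genes tested. limma-voom with sample quality weights called 0 members, where it called 2.96% of the genes tested. Its unadjusted p was under 0.05 for 2 of 26 members, *Ccl24* and *Cxcl10*, and for 7.5% of the genes tested. DESeq2 with default options, the study's tool, called 1 of the 19 members to which it gave an adjusted p, the ligand *Ccl25*, where it called 12.1% of all genes with an adjusted p. The adjusted p was 1 for every tested member in edgeR. Standard errors of the log2 fold change lay between 2.20 and 6.80, so that even large ratios were within the spread between libraries.

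Of the 26 tested members, 14 had a log2 fold change above 0 (Zeb1∆M/ApoeKO over Zeb1WT/ApoeKO) and 12 below. Over all genes tested, 60.9% were above 0. The median was 0.58 for the members, 0.76 for the ligands and 0.39 for the receptors, beside 0.78 for all genes tested. Without Zeb1∆M/ApoeKO replicate 1 the median was 0.05 for 21 members and 0.14 for all genes. Without Zeb1∆M/ApoeKO replicate 2 it was −0.67 for the members and 0.60 for all genes, without replicate 3 it was 1.29 and 0.51, without Zeb1WT/ApoeKO replicate 1 it was 1.47 and 1.53, and without Zeb1WT/ApoeKO replicate 2 it was 1.51 and 3.62. The members' median thus lay below or above that of all genes, depending on the library left out. Another scaling moved the medians together, to 1.24 for all genes and 1.001 for the members with RLE size factors and to 0.29 and 0.01 with upper-quartile normalization. With limma-voom both medians were below 0, at −0.30 for all genes, of which 46.7% were above 0, and −0.51 for the members, of which 12 were. CPM did not overlap between the genotypes for 5 members, all ligands, against 11.2% of the genes tested. *Ccl3*, *Ccl6*, *Ccl12* and *Ccl25* were higher in all Zeb1∆M/ApoeKO libraries (4 of 26, where 6.68% of the genes tested were) and *Cxcl10* was lower (1 of 26, where 4.54% were). These 5 did not overlap with scaling by total counts or RLE size factors either. Without Zeb1∆M/ApoeKO replicate 1, 8 members did not overlap, with *Ccl24* added among the higher and *Ccr9* and *Cxcl2* among the lower ones, while 24.2% of all genes tested did not overlap. In that comparison 0 of 21 tested members were called and *Ccl6* and *Ccl24* had an unadjusted p under 0.05 in edgeR's quasi-likelihood test, beside 2.44% of the 5050 genes tested.

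**Figure D3:**
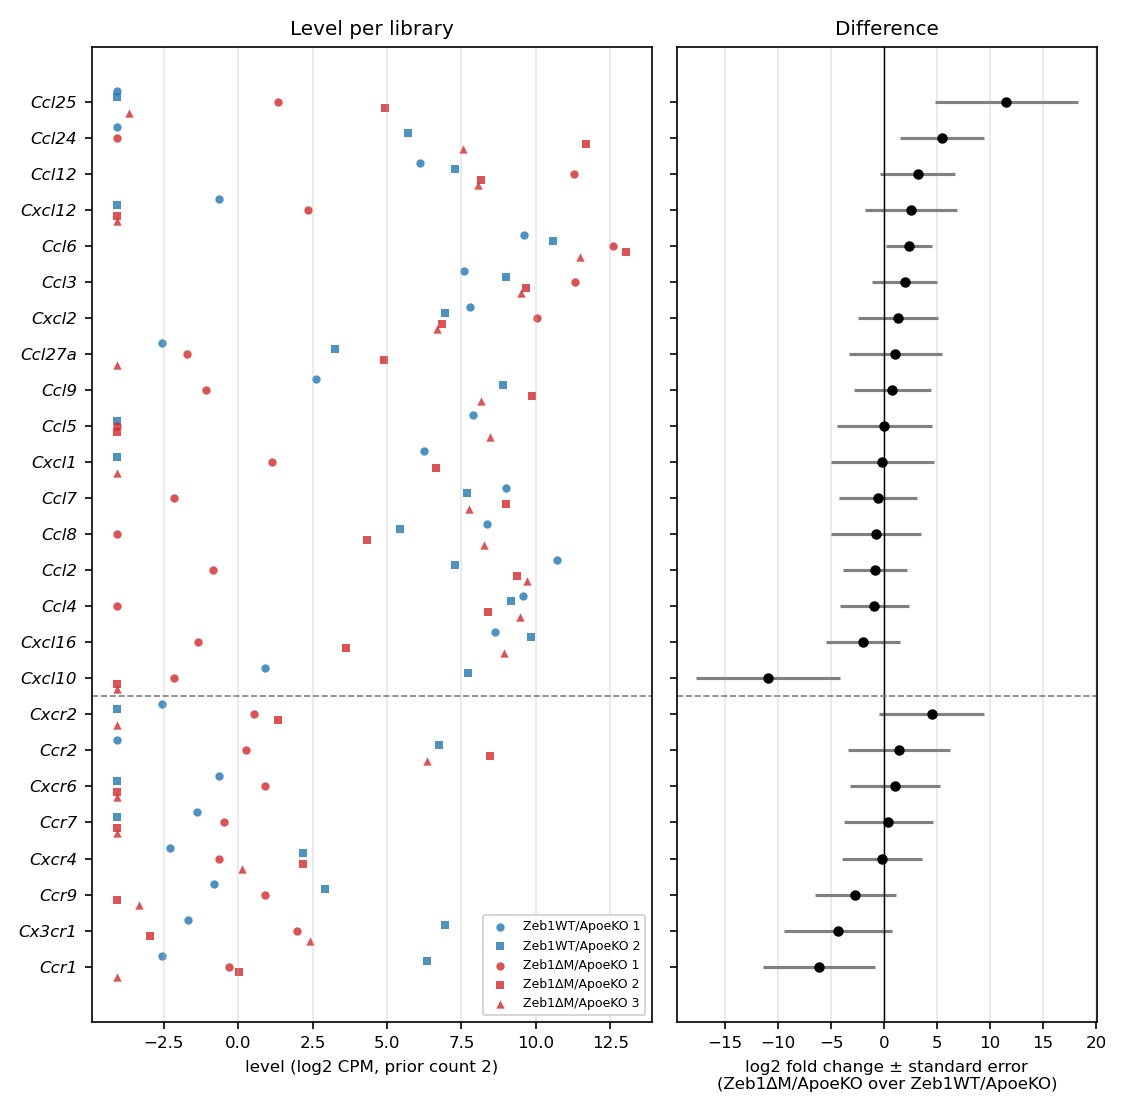
Left, level of tested members in every library (log2 CPM with a prior count of 2), points offset vertically by library, blue for Zeb1WT/ApoeKO and red for Zeb1∆M/ApoeKO. Right, log2 fold change with its standard error from edgeR. The bars of most members cross 0, and points at the left edge of the left panel are libraries with 0 counts.

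*Ccl2*, *Ccl7*, *Ccl8* and *Ccl12* share a cluster on chromosome 11, and *Ccl2*, *Ccl7* and *Ccl12* are ligands of *Ccr2*, with which *Ccl8* was also paired here. *Ccl12* had 1923 and 5433 counts in Zeb1WT/ApoeKO replicates 1 and 2 and 30410, 12194 and 13277 in Zeb1∆M/ApoeKO replicates 1 to 3. All Zeb1∆M/ApoeKO libraries were above both Zeb1WT/ApoeKO libraries, and replicate 1 was the highest. The mean was 114 ± 62.2 CPM (SD, n = 2) against 1020 ± 1290 CPM (SD, n = 3), with a log2 fold change of 3.17 (edgeR standard error 3.54, adjusted p = 1). The exact permutation test gave p = 0.3. Without Zeb1∆M/ApoeKO replicate 1 the log2 fold change was 1.12. *Ccl2* (monocyte chemoattractant protein 1) had 46532 and 5397 counts in the Zeb1WT/ApoeKO libraries and 6, 27932 and 42094 in the Zeb1∆M/ApoeKO libraries. The genotypes overlapped, with Zeb1WT/ApoeKO replicate 1 the highest (1685 CPM) and Zeb1∆M/ApoeKO replicate 1 almost without reads. The log2 fold change of *Ccl2* was −0.89 (standard error 3.04), and its sign turned when Zeb1WT/ApoeKO replicate 1 was left out (1.79). *Ccl7* had 14059 and 7039 counts against 2, 21851 and 10979, and its log2 fold change was −0.55 (standard error 3.67). *Ccl8* had 9134 and 1482 counts against 0, 867 and 15379, and its log2 fold change was −0.78 (standard error 4.28). Like *Ccl2*, both were nearly absent from Zeb1∆M/ApoeKO replicate 1 and overlapped between genotypes in the other libraries. With upper-quartile normalization the values were −6.52 for *Ccl2*, −5.61 for *Ccl7* and −6.76 for *Ccl8*. By contrast, *Ccl12* from the same cluster had its most reads in Zeb1∆M/ApoeKO replicate 1.

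*Ccl3*, *Ccl4*, *Ccl5*, *Ccl6* and *Ccl9* form the other Ccl cluster on chromosome 11, and of these *Ccl3*, *Ccl5*, *Ccl6* and *Ccl9* are known as ligands of *Ccr1*. *Ccl6* had 21344 and 53158 counts in the Zeb1WT/ApoeKO libraries and 74903, 357907 and 143891 in the Zeb1∆M/ApoeKO libraries. Again no Zeb1∆M/ApoeKO library fell within the range of the Zeb1WT/ApoeKO libraries. Its mean was 1158 ± 544 CPM (SD, n = 2) against 5804 ± 2772 CPM (SD, n = 3), with a log2 fold change of 2.33 (edgeR standard error 2.20, adjusted p = 1). The two-sided exact permutation test over the 10 assignments of libraries to genotypes gave p = 0.1, the smallest p that 2 against 3 libraries allow. Without Zeb1∆M/ApoeKO replicate 1 the log2 fold change was 2.13. *Ccl3* had 5295 and 17627 counts against 30764, 34779 and 36746. Its Zeb1∆M/ApoeKO counts lay close together, although scaling separated replicate 1 from the others (2539 CPM against 813 and 731 CPM). The mean was 352 ± 226 CPM (SD, n = 2) against 1361 ± 1021 CPM (SD, n = 3), which gave 1.95 as log2 fold change (standard error 3.05), and the exact permutation test gave p = 0.1. Without replicate 1 the log2 fold change of *Ccl3* was 0.996.

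*Ccl4* (macrophage inflammatory protein 1β), a neighbour of *Ccl3* that is often induced with it, had 20866 and 19738 counts in the Zeb1WT/ApoeKO libraries and 0, 14271 and 35386 in the Zeb1∆M/ApoeKO libraries. It was at 0 where *Ccl3* had 30764 counts, and elsewhere the genotypes overlapped. The log2 fold change of *Ccl4* was −0.94 (standard error 3.26), and it was −0.60 without Zeb1∆M/ApoeKO replicate 1 and −2.01 without replicate 3, and −6.01 with upper-quartile normalization. *Ccl9* had 166 and 16465 counts against 5, 40282 and 14318, with a log2 fold change of 0.76 (standard error 3.65). Both replicate 1 libraries were low in *Ccl9* and the other 3 were high. *Ccl5* (RANTES), a product of activated T and NK cells as well as of macrophages, had 6534 and 0 counts against 0, 0 and 17805. It was thus read in 1 library of each genotype, and its log2 fold change was −0.0019 (standard error 4.48), a value that depended on the setting (−1.08 with DESeq2, −6.23 with upper-quartile normalization and −11.22 with the replicate block).

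Among the Cxcl ligands, *Cxcl2* was the most evenly counted. It had 6099 and 4245 counts in the Zeb1WT/ApoeKO libraries and 12755, 4906 and 5208 in the Zeb1∆M/ApoeKO libraries. The genotypes overlapped, with only Zeb1∆M/ApoeKO replicate 1 above the rest, and the log2 fold change of 1.3003 (standard error 3.77) became −0.91 without that library. *Cxcl1*, its neighbour and like it a ligand of *Cxcr2*, had 2115 and 0 counts against 26, 4295 and 0, with a log2 fold change of −0.16 (standard error 4.87). *Cxcl16*, a membrane-anchored ligand of *Cxcr6* that also takes up oxidized lipoprotein, had 10819 and 31580 counts against 4, 521 and 24689. It was high in both Zeb1WT/ApoeKO libraries and in Zeb1∆M/ApoeKO replicate 3, with a log2 fold change of −1.96 (standard error 3.49), which was −6.43 with upper-quartile normalization. With scaling by total counts or RLE size factors its CPM no longer overlapped between genotypes. *Cxcl16* shares 552 exonic bases with *Zmynd15* on the opposite strand, and the kit does not keep strand, so reads there cannot be assigned; *Zmynd15* had 4010 counts in Zeb1∆M/ApoeKO replicate 3 and at most 30 in the others.

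*Cxcl10*, an interferon-induced ligand of *Cxcr3* at chr5:92346638-92348889, had 50 and 7352 counts in the Zeb1WT/ApoeKO libraries and 2, 0 and 0 in the Zeb1∆M/ApoeKO libraries. Almost all its reads, 99.3%, came from Zeb1WT/ApoeKO replicate 2. The log2 fold change was −10.96 (standard error 6.80, unadjusted p = 0.107 and adjusted p = 1 in edgeR), the DESeq2 adjusted p was 0.0795, and the exact permutation test gave p = 0.1. *Cxcl9*, another interferon-induced ligand of that receptor, had 21 counts in Zeb1∆M/ApoeKO replicate 1 and 0 in the other libraries. *Cxcl12*, the stromal ligand of *Cxcr4*, had 16 counts in Zeb1WT/ApoeKO replicate 1, 61 in Zeb1∆M/ApoeKO replicate 1 and 0 elsewhere, with a log2 fold change of 2.52 (standard error 4.35).

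*Ccl25*, the ligand of *Ccr9* that is best known from thymus and small intestine, had 0 counts in both Zeb1WT/ApoeKO libraries and 30, 1319 and 1 in the Zeb1∆M/ApoeKO libraries. The genotypes did not overlap, but the lowest Zeb1∆M/ApoeKO library had a single count, and 97.7% of the reads came from replicate 2. *Ccl25* shares 204 exonic bases with Elavl1 on the opposite strand, where reads cannot be assigned without strand, and Elavl1 had 3769 counts in Zeb1∆M/ApoeKO replicate 3, the library with the single count, and at most 20 in the others. Against a floor of 3 counts per library, the mean of the Zeb1∆M/ApoeKO libraries was at least 113-fold higher, and without replicate 2 at least 12-fold. edgeR's unadjusted p was 0.0855, the lowest among the members (adjusted p = 1), DESeq2 gave an adjusted p of 0.0496, and the exact permutation test gave p = 0.2. *Ccl24* (eotaxin 2), a ligand of *Ccr3* made by alternatively activated macrophages, had 0 and 1777 counts against 0, 139633 and 9440. Replicate 2 of the Zeb1∆M/ApoeKO libraries held 92.6% of its reads, 1 library of each genotype had none, and the log2 fold change was 5.48 (standard error 3.96). It was 1.96 without Zeb1∆M/ApoeKO replicate 2. Without Zeb1WT/ApoeKO replicate 2 its genotype was left at 0 counts, and against the floor the Zeb1∆M/ApoeKO mean was at least 10595-fold higher. *Ccl27a*, a skin chemokine, had 3 and 326 counts against 3, 1261 and 0, with a log2 fold change of 1.05 (standard error 4.39). It shares 33.3% of its 75-base stretches with near-identical genes, so its counts are uncertain.

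The other 7 detected ligands did not pass the filter and had reads in 1 or few libraries. *Cxcl14* had 1902 counts in Zeb1∆M/ApoeKO replicate 2 and 1 in replicate 1, and *Xcl1* had 1466 counts in Zeb1∆M/ApoeKO replicate 3 alone. *Ccl19*, *Ccl22*, *Cxcl3*, *Cxcl5* and *Cxcl9* had between 5 and 21 counts in Zeb1∆M/ApoeKO replicate 1 and at most 1 in any other library. That library held such thin counts in general: 84.6% of its detected members, and 93.4% of its detected protein coding genes, had between 4 and 100 counts, against 0% to 36.8% and 18.4% to 70.7% in the other libraries.

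The receptors had far fewer counts than the ligands. Summed over the 18 receptors, there were 56 and 11267 counts in the Zeb1WT/ApoeKO libraries and 230, 20535 and 4458 in the Zeb1∆M/ApoeKO libraries, whereas the ligands summed to between 144957 and 663920. No receptor exceeded 100 counts in either replicate 1 library, where 12 and 4 ligands did. *Ccr2*, the main receptor by which inflammatory monocytes enter tissue, lies on chromosome 9 (chr9:124101950-124113557) beside *Ccr1* and *Ccr3*. It had 0 and 3698 counts in the Zeb1WT/ApoeKO libraries and 14, 14917 and 4123 in the Zeb1∆M/ApoeKO libraries. The 3 libraries that were not replicate 1 were high and both replicate 1 libraries were low, irrespective of genotype. Its log2 fold change was 1.42 (standard error 4.79), and the value became −0.27 without Zeb1∆M/ApoeKO replicate 2. Without Zeb1WT/ApoeKO replicate 2 its genotype was left at 0 counts, and against a floor of 3 counts the Zeb1∆M/ApoeKO mean was at least 1325-fold higher.

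*Cx3cr1*, the fractalkine receptor of patrolling monocytes and resident macrophages, had 7 and 4251 counts against 47, 3 and 265. *Ccr1*, a receptor for *Ccl3*, *Ccl5*, *Ccl6* and *Ccl9*, had 3 and 2787 counts against 9, 41 and 0. For both, Zeb1WT/ApoeKO replicate 2 held over 90% of the reads (93.0% and 98.1%) and replicate 1 of that genotype was within the range of the Zeb1∆M/ApoeKO libraries. Their log2 fold changes were −4.33 (standard error 5.10) and −6.15 (standard error 5.28, unadjusted p = 0.244 in edgeR, the lowest among the receptors). Without Zeb1WT/ApoeKO replicate 2 they were 3.38 and 2.11.

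*Cxcr4*, the receptor of *Cxcl12*, was the only receptor above 3 counts in every library, with 4 and 154 counts against 7, 191 and 52. The genotypes overlapped fully, and the log2 fold change was −0.19 (standard error 3.79), with its sign turning under RLE size factors (0.26) and upper-quartile normalization (0.28). *Cxcr2*, the neutrophil receptor of *Cxcl1* and *Cxcl2*, had 3 and 0 counts against 17, 105 and 0, and *Ccr9* had 14 and 259 against 22, 0 and 2. Their log2 fold changes were 4.48 (standard error 4.95) and −2.71 (standard error 3.84), and that of *Ccr9* was −7.50 without Zeb1∆M/ApoeKO replicate 1, a value fitted on 2 counts in the remaining Zeb1∆M/ApoeKO libraries. *Ccr9* overlaps another annotated transcript, *AC165425.1*, by 1932 exonic bases, and that transcript had 438 counts in the library where *Ccr9* had 259. *Ccr7*, which guides dendritic cells to lymph nodes, had 9 and 0 counts against 8, 0 and 0, and *Cxcr6* had 16 and 0 against 22, 0 and 0. Both were read only in the replicate 1 libraries, and their log2 fold changes were 0.39 (standard error 4.22) and 1.04 (standard error 4.24), with negative values under upper-quartile normalization (−0.91 and −0.26). *Ccr4* and *Cxcr5* had 33 and 22 counts in Zeb1∆M/ApoeKO replicate 1 and 0 elsewhere. *Ccr3* had 26 counts there and at most 3 in the others, and *Xcr1* had 3 there and 6 in replicate 2.

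Within each library, a few genes made up most of the chemokine counts. Ligands took 0.721% and 0.496% of all counts in the Zeb1WT/ApoeKO libraries and 0.611%, 1.86% and 0.732% in the Zeb1∆M/ApoeKO libraries. *Ccl6* held 14.7% and 31.0% of the ligand counts in the first genotype and 50.3%, 53.9% and 38.8% in the second. It was the leading ligand in 4 libraries, and in Zeb1WT/ApoeKO replicate 1 *Ccl2* led with 32.1%. The ligand in second place changed with the library. It was *Cxcl16* with 18.4% in Zeb1WT/ApoeKO replicate 2, *Ccl3* with 20.6% in Zeb1∆M/ApoeKO replicate 1, *Ccl24* with 21.03% in replicate 2 and *Ccl2* with 11.4% in replicate 3. Summed ligand levels were 5248 and 4980 CPM in the Zeb1WT/ApoeKO libraries and 12298, 15524 and 7378 CPM in the Zeb1∆M/ApoeKO libraries, a log2 ratio of means of 1.20 (1.16 without Zeb1∆M/ApoeKO replicate 1), given without a test. This separation rested on the scaling: by share of all counts Zeb1∆M/ApoeKO replicate 1 lay below Zeb1WT/ApoeKO replicate 1, so the genotypes overlapped, and the ratio was 0.81 by total counts and 1.47 with RLE size factors. Among receptors, *Ccr2* held 72.6% and 92.5% of the counts in Zeb1∆M/ApoeKO replicates 2 and 3, and in Zeb1WT/ApoeKO replicate 2 *Cx3cr1* (37.7%), *Ccr2* (32.8%) and *Ccr1* (24.7%) shared them. Summed receptor levels were 2.03 and 327 CPM against 19.0, 480 and 88.7 CPM, and so the genotypes overlapped, with a log2 ratio of means of 0.25 (0.79 without Zeb1∆M/ApoeKO replicate 1). The direction turned without Zeb1∆M/ApoeKO replicate 2 (−1.61) or Zeb1WT/ApoeKO replicate 1 (−0.74), and without Zeb1WT/ApoeKO replicate 2 the ratio was 6.59.

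**Figure D4:**
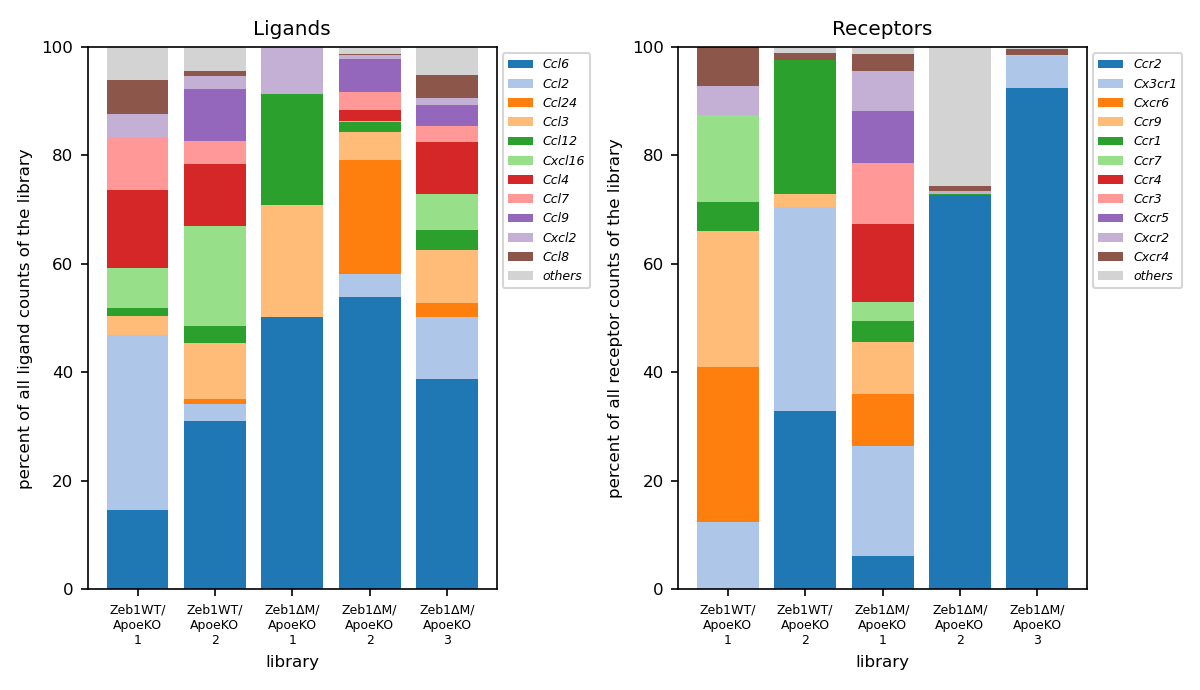
Share of each gene in the counts of all ligands (left) and of all receptors (right) in every library, in percent. *Ccl6* is the lowest segment on the left and reaches 53.9% in Zeb1∆M/ApoeKO replicate 2. Receptor shares in both replicate 1 libraries rest on totals of 56 and 230 counts.

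Levels were compared between genes after division by exon length (counts per kilobase of exon, scaled to the same sum in every library). On this scale the level of *Ccl6* was 1147 and 2090 in the Zeb1WT/ApoeKO libraries and 2972, 11815 and 3495 in the Zeb1∆M/ApoeKO libraries. It thus ranked between 9 and 167 among protein coding genes. On the same scale the levels of *Ccl3* were 667 and 1624 against 2860, 2690 and 2092, and those of *Cxcl2* were 285 and 145 against 439, 141 and 110. *Ccl3* thereby lay below *Ccl6* in every library, and *Cxcl2* lay below *Ccl3*. The length-scaled levels of *Ccr2* were 0 and 38.6 against 0.147, 131 and 26.6, those of *Cx3cr1* were 0.150 and 66.6 against 0.743, 0.0395 and 2.56, and those of *Cxcr4* were 0.214 and 6.01 against 0.276, 6.26 and 1.25. Hence *Cx3cr1* and *Ccr1* were above *Ccr2* in Zeb1WT/ApoeKO replicate 2, with *Ccr1* at 69.4, and *Ccr2* was above both in Zeb1∆M/ApoeKO replicates 2 and 3.

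The absences in Zeb1∆M/ApoeKO replicate 1 fell on named ligands. 10 members had over 100 counts in all of the other 4 libraries, and 6 of them (60%) had at most 10 counts in this one, namely *Ccl2*, *Ccl4*, *Ccl7*, *Ccl8*, *Ccl9* and *Cxcl16*. Among all genes of that kind the share was 288 of 776 (37.1%). The 4 ligands that were kept, *Ccl3*, *Ccl6*, *Ccl12* and *Cxcl2*, had between 12755 and 74903 counts there. For the other libraries the share among all genes, taken the same way, was 13.6% in Zeb1WT/ApoeKO replicate 1 and 2.20% to 5.35% in the rest. What set the presence of a ligand in this library was not tested.

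Ligands were next set beside their receptors. For 33 listed pairs of a ligand and a receptor, both genes exceeded 3 counts in 0 libraries for 14 pairs, in 1 library for 6, in 2 for 4, in 3 for 7, in 4 for 2 and in 5 for 0. The pairs in 4 libraries were *Ccl2* with *Ccr2* and *Ccl12* with *Ccr2*. At over 100 counts for both genes, 4 pairs reached 3 libraries, all with *Ccr2* (*Ccl2*, *Ccl7*, *Ccl8* and *Ccl12*), and these were Zeb1WT/ApoeKO replicate 2 and Zeb1∆M/ApoeKO replicates 2 and 3. *Cxcl16* was above 3 counts in every library, but its receptor *Cxcr6* only in the replicate 1 libraries with 16 and 22 counts. *Cxcl10* and *Cxcl9* were read where *Cxcr3* had 0 counts, and *Cx3cr1* was read where *Cx3cl1* had at most 3. Receptor and ligand may belong to different cells, and the libraries hold only sorted cells.

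Reads of lymphocyte genes were present in libraries where some members were high. *Ccl5*, a ligand abundant in cytotoxic lymphocytes, was read in Zeb1WT/ApoeKO replicate 1 and Zeb1∆M/ApoeKO replicate 3, with 6534 and 17805 counts. *Gzma*, a granzyme of NK and cytotoxic T cells, was read in these 2 libraries (22954 and 26062 counts) and had 0 counts in the other 3. *Xcl1*, also a product of NK and CD8 T cells, had its 1466 counts in Zeb1∆M/ApoeKO replicate 3, where *Prf1* had 17951, *Nkg7* 27226 and *Cd8a* 23449. *Cd8a* (35711 counts) and the T cell kinase gene *Lck* (90049) were highest in Zeb1WT/ApoeKO replicate 2, where *Xcl1* and *Ccl5* were at 0. *Cd3d* had 18115 counts in Zeb1WT/ApoeKO replicate 2, 12795 in Zeb1∆M/ApoeKO replicate 3 and 0 in the other 3, so it was high in 1 library with *Ccl5* and in 1 without it. All 6 NK cell markers exceeded 3 counts in some library, with summed levels of 832 and 0.0580 CPM in the Zeb1WT/ApoeKO libraries and 3.96, 0.117 and 1418 CPM in the Zeb1∆M/ApoeKO libraries. In Zeb1WT/ApoeKO replicate 1 this sum was almost only *Gzma* (831 CPM), with 14 counts of *Prf1*, 10 of *Cd8a* and 0 of *Nkg7*. The defining receptor gene *Ncr1* had 10 counts in Zeb1∆M/ApoeKO replicate 1 and 0 in the others. *Klrb1c* had 5 counts in Zeb1∆M/ApoeKO replicate 2 alone, and *Klrk1* had 23 in Zeb1∆M/ApoeKO replicate 1 and 2 in Zeb1WT/ApoeKO replicate 2. These receptor genes were at 0 in Zeb1WT/ApoeKO replicate 1 and Zeb1∆M/ApoeKO replicate 3, where the sums were highest. 7 of 8 T cell markers exceeded 3 counts in some library, *Il7r* being at 0, with summed levels of 7.89 and 5321 CPM against 2.31, 361 and 1430 CPM. The study's methods sort cells by CD45, CD11b and F4/80. How far lymphocytes passed this gate, and their part in the counts of *Ccl5* and *Xcl1*, was not tested.

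**Figure D5:**
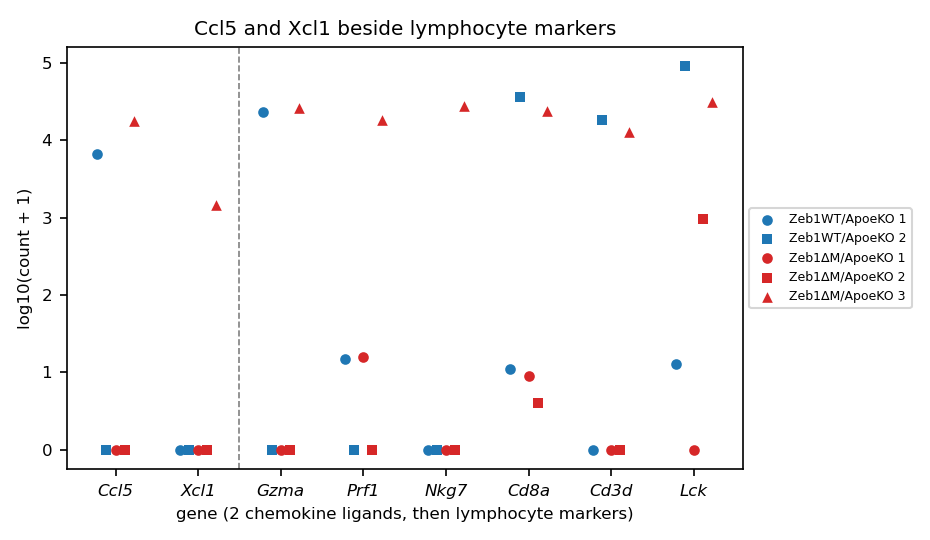
Counts of *Ccl5* and *Xcl1* (left of the dashed line) and of 6 lymphocyte genes (right) in every library, as log10(count + 1), blue for Zeb1WT/ApoeKO and red for Zeb1∆M/ApoeKO. *Ccl5* and *Gzma* are read in Zeb1WT/ApoeKO replicate 1 and Zeb1∆M/ApoeKO replicate 3 and are at 0 in the others.

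Markers of further cell types were examined in the same way. Of 8 neutrophil markers, 4 exceeded 3 counts, with summed levels of 2616 and 671 CPM against 2735, 841 and 39.9 CPM. *S100a8* had 33862 and 11811 counts against 33132, 22405 and 962. *S100a9* had 29483 and 10969 against 0, 4180 and 1041, and *Retnlg* had 8892 and 355 against 0, 9370 and 0. *Ltf* had at most 7 counts, *Ly6g* had at most 1, and *Camp*, *Ngp* and *Mpo* were at 0. Dendritic cell markers summed to 2.79 and 0 CPM against 6.60, 0.164 and 434 CPM, the last being 21805 counts of *Cd209a*. Of 6 B cell markers, 4 exceeded 3 counts, led by *Ighm* with 8 to 73037 counts, and *Cd79a* and *Cd79b* were at 0. Of 6 fibroblast markers, 4 did, and *Dcn* had 19005 counts in Zeb1∆M/ApoeKO replicate 2, where *Cxcl14* had 1902, while *Lum* was at 0 (summed levels 0.109 and 0 CPM against 3.88, 444 and 2.25 CPM). Of 6 endothelial, 6 smooth muscle and 5 mast cell markers, 4, 1 and 2 exceeded 3 counts, and *Cdh5*, *Tek*, *Acta2*, *Tagln* and *Cpa3* were at 0. *Pecam1*, found on endothelium and on leukocytes, had 2487 counts in Zeb1WT/ApoeKO replicate 2 and 2628 in Zeb1∆M/ApoeKO replicate 3, and the endothelial receptor *Kdr* had 1455 in Zeb1WT/ApoeKO replicate 1. How far these cell types passed the sort for CD45, CD11b and F4/80, and their part in the results, was not tested.

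Chemokine proteins and receptors outside the naming rule varied likewise. Of 14 such genes, all above 3 counts in some library, 9 were tested, 6 with a log2 fold change above 0 and 3 below, with a median of 0.94 beside 0.78 for all genes. edgeR called 0 of them, with 0 at an unadjusted p under 0.05 (1.09% of all genes tested), and DESeq2 and limma-voom also called 0, where they called 12.1% and 2.96% of all genes. *Pf4* (platelet factor 4, also called Cxcl4), stored in platelets and read in many tissue macrophages, had 13873 and 26751 counts against 2997, 147665 and 76758, with a log2 fold change of 1.45 (standard error 2.77). The platelet membrane genes *Itga2b*, *Gp9* and *Gp1ba* had at most 12 counts, whereas *Ppbp*, the other chemokine stored in platelets, had 2814 counts in Zeb1WT/ApoeKO replicate 2, 2326 in Zeb1∆M/ApoeKO replicate 3 and at most 2 elsewhere. *Ccrl2*, which presents chemerin, had 1103 and 7242 counts against 9, 6424 and 22408. 2 of the 9 did not overlap between genotypes, beside 11.2% of all genes tested. *Cmklr1*, the signalling receptor of chemerin, had 1 and 0 counts against 8, 12 and 2432. *Cmtm7* had 19482 and 10942 counts against 0, 5360 and 4179.

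Of 50 signalling genes listed, from G protein subunits to Rac regulators, 49 were in the table and 42 were tested, 22 with a log2 fold change above 0 and 20 below, with a median of 0.05. edgeR called 0, with 0 at an unadjusted p under 0.05 (1.09% of all genes tested), DESeq2 called 3 of the 35 to which it gave an adjusted p (*Gng12*, *Pik3r6* and *Rgs18*), beside 12.1% of all genes, and limma-voom called 1 of the 42 (*Gng12*), beside 2.96%. *Pik3r6* and *Rgs18* had not passed the filter and were read in Zeb1WT/ApoeKO replicate 2 alone, with 3386 and 2781 counts. The highest mean levels in CPM belonged to *Cdc42*, *Rac2* and *Gng10*. *Cdc42*, a GTPase of cell polarity, had 20777 and 37600 counts against 0, 50299 and 8790, and *Rac2*, the Rac of blood cells, had 15 and 36878 against 0, 17086 and 52714. 4 of the 42 did not overlap, beside 11.2% of all genes tested. *Rgs1*, an inhibitor of chemokine receptor signalling, had 15248 and 31728 counts against 18, 6596 and 16333, and *Rgs19*, of the same family, had 21368 and 5383 against 0, 0 and 4344. Both were lower in every Zeb1∆M/ApoeKO library after scaling, with log2 fold changes of −2.20 (standard error 3.44) and −4.01 (standard error 4.20). *Plcb3*, a phospholipase C β, and *Gng12*, a γ subunit, were at 0 in both Zeb1WT/ApoeKO libraries and had 37, 13281 and 2 counts and 16, 2505 and 9424 counts in the Zeb1∆M/ApoeKO libraries.

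Of 17 modifiers and non-classical ligands, such as proteases that shed or trim chemokines, 12 were tested, 4 with a log2 fold change above 0 and 8 below, with a median of −1.71. edgeR called 0, with 1 at an unadjusted p under 0.05 (1.09% of all genes tested), DESeq2 called 0 (12.1%) and limma-voom called 1 (2.96%). In both cases the gene was *Mmp12*, the macrophage metalloelastase, which also cleaves chemokines. It had 48181 and 2165 counts in the Zeb1WT/ApoeKO libraries and 36, 0 and 0 in the Zeb1∆M/ApoeKO libraries, and its log2 fold change was −9.84 (edgeR standard error 4.66, unadjusted p = 0.0349, adjusted p = 1; DESeq2 adjusted p = 0.132; limma-voom adjusted p = 1.58e-06). It was the only 1 of the 12 whose CPM did not overlap between genotypes, beside 11.2% of all genes tested. *Cd74*, which binds the chemokine-like cytokine *Mif*, had between 70314 and 498389 counts in all libraries, with a log2 fold change of −0.07 (standard error 1.75). *Hmgb1*, a nuclear protein that forms a complex with *Cxcl12*, had 7 and 25937 counts against 84555, 17997 and 53030.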

How the data were processed

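RNA-seq of sorted aortic macrophages was analysed for 2 Zeb1WT/ApoeKO and 3 Zeb1∆M/ApoeKO libraries, grouped by their labels. The authors aligned the read pairs to GRCm38 with STAR 2.5.3a and deposited RSEM 1.3.0 expected counts per gene (GENCODE mouse release 25) as whole numbers, without normalization. Tool versions are credited to the submitters' processing notes. Total counts were 20118545, 34596110, 24372265, 35771785 and 50649912 per library, and 3 counts were taken as the floor of detection.

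Counts were tested with edgeR 4.0.16 in R 4.3.3 (filterByExpr with a minimum count of 10, TMM, quasi-likelihood test, Benjamini-Hochberg adjustment over 7905 genes), without covariates. The standard error was taken from the log2 fold change and its F statistic. The fits were repeated with DESeq2 1.42.0 (default options), limma-voom (limma 3.58.1, sample quality weights), RLE and upper-quartile scaling, other filters, the replicate number as a block, leaving out 1 library at a time, and a threshold of 0.1. Single genes were also compared with a two-sided exact permutation test over 10 splits on log2 CPM with a prior count of 2. The tests were run on simulated data with far less spread between libraries than here, where edgeR's common dispersion was 6.44. That check does not show how the tests behave on these libraries. No set test was run.

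Every member of the symbol rule was accounted for: tested members were named with counts and fold changes, other members above 3 counts with their counts, and the rest by name, except 1 member that enters the counts over members and is not reported here. Of the pathway lists, the genes without overlap between genotypes and the 3 with the highest mean CPM were named. Other genes were taken from marker lists or chosen after their values were seen. Members and lists were chosen with earlier results of these data known. Positions and exon lengths came from GENCODE M21, which also uses GRCm38. Promoters came from RefSeq (GRCm38.p6). Python 3.11.15, scipy 1.17.1 and matplotlib 3.10.9 were used.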

Additional observations from a re-analysis of the deposited data

How the results depend on the processing

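No chemokine or receptor gene was called by edgeR's quasi-likelihood test under any scaling, filter, replicate block, left-out library or threshold tried (0 members each, with 0 to 2 at an unadjusted p under 0.05), and 0 of all genes were called (7 to 173 at an unadjusted p under 0.05). DESeq2 called 790 genes (448 higher and 342 lower in Zeb1∆M/ApoeKO libraries) and 1 member, *Ccl25* (log2 fold change 10.66). limma-voom called 234 genes (175 higher and 59 lower) and 0 members. Replicate numbers 1 and 2 occur in both genotypes, but the correlation of their differences across genes was 0.18 with only 2 pairs, which does not establish a pairing. With the replicate block, the paired fit called 0 genes, with 7 at an unadjusted p under 0.05, and turned the log2 fold changes of *Ccl9* (−1.41), *Cxcl1* (2.92) and *Cxcr4* (0.96).

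Directions of single members depended on the setting. limma-voom turned 8 of 26, *Ccl2* (0.10), *Ccl27a* (−1.62), *Ccl5* (0.38), *Ccr7* (−2.25), *Cxcl12* (−2.37), *Cxcl2* (−0.40), *Cxcr4* (1.07) and *Cxcr6* (−2.53). Upper-quartile scaling turned *Ccr7* (−0.91), *Cxcr4* (0.28) and *Cxcr6* (−0.26). Without a turn, it moved *Ccl2* (−0.89 to −6.52), *Ccl4* (−0.94 to −6.01), *Ccl5* (−0.0019 to −6.23), *Ccl7* (−0.55 to −5.61), *Ccl8* (−0.78 to −6.76), *Cxcl1* (−0.16 to −5.09) and *Cxcl16* (−1.96 to −6.43), and the replicate block moved *Ccl2* (−4.68), *Ccl5* (−11.22), *Ccl7* (−4.92), *Ccl8* (−7.38) and *Cxcl16* (−8.18). Other values shrank under upper-quartile scaling, among them *Cx3cr1* (−4.33 to −0.63), *Ccr1* (−6.15 to −2.30), *Ccr9* (−2.71 to −0.30), *Cxcl10* (−10.96 to −6.81) and *Cxcr2* (4.48 to 1.97). Without a filter, *Ccl5* (0.27), *Ccr7* (−1.34), *Cxcr4* (0.080) and *Cxcr6* (−0.75) turned. DESeq2 (0.19) and RLE size factors (0.26) turned *Cxcr4*. The cause of these turns was not tested.

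With each library left out in turn, values ranged from −1.74 to 1.79 for *Ccl2*, −0.97 to 15.09 for *Ccl5*, −1.65 to 0.36 for *Ccl7*, −4.22 to 1.47 for *Ccl8*, −0.67 to 6.10 for *Ccl9*, −7.21 to 2.11 for *Ccr1*, −0.27 to 15.29 for *Ccr2*, −5.36 to 3.38 for *Cx3cr1*, −5.36 to 13.27 for *Cxcl1*, −0.91 to 1.96 for *Cxcl2*, −1.50 to 3.74 for *Cxcr4* and −0.57 to 7.05 for *Cxcr6*. Without a turn of sign, they ranged from 1.96 to 18.29 for *Ccl24*, 0.17 to 6.47 for *Ccl27a*, 0.90 to 8.52 for *Cxcl12*, 3.33 to 8.41 for *Cxcr2*, −7.50 to −0.32 for *Ccr9*, −15.01 to −5.61 for *Cxcl10*, −6.71 to −1.19 for *Cxcl16* and 1.12 to 3.82 for *Ccl12*. The values for *Ccl4* ranged from −2.01 to −0.60, and the replicate block gave −7.66. The highest values of *Ccl24*, *Ccl5*, *Ccr2*, *Cxcl1*, *Cxcl12*, *Cxcr2* and *Cxcr6* and the lowest of *Cxcl10* were fitted against a genotype left at 0 counts, and are no measured folds. *Ccl25* failed the filter without Zeb1∆M/ApoeKO replicate 1 or 2. *Ccr7* could be fitted without Zeb1WT/ApoeKO replicate 2 only among these (−1.19), since it failed the filter otherwise. The members without overlap ranged from 5 to 10, with 10 without either Zeb1WT/ApoeKO library, 8 without Zeb1∆M/ApoeKO replicate 1 and 9 without replicate 3, while the share among all genes tested rose from 11.2% to between 20.5% and 39.4%. The members above the floor ranged from 29 to 37, and were 32 with a floor of 10 counts. The summed receptor ratio ranged from −1.61 without Zeb1∆M/ApoeKO replicate 2 to 6.59 without Zeb1WT/ApoeKO replicate 2. The summed ligand ratio ranged from 0.94 to 1.44 in the same way, and was 0.81 by total counts and 1.47 with RLE size factors. Leaving out a Zeb1WT/ApoeKO library leaves 1, which is assumed to vary like the other genotype. With at least 10 counts in every library 4 members remained in the test. Depth limits statements on the 26 members at or under 3 counts.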

Other observations

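*Cxcl11*, an interferon-induced ligand of *Cxcr3* at chr5:92359544-92365485, is not listed as protein coding in the table and lies outside the naming rule. It had 4 counts in Zeb1∆M/ApoeKO replicate 1 and 0 in the other libraries, and so it was not read where *Cxcl10* had 7352 counts. The 3 interferon-induced ligands *Cxcl9*, *Cxcl10* and *Cxcl11* thus had no library in which all exceeded 3 counts.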
